A study of Mus musculus with 6 samples.

Results

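The cyclin-dependent kinase (CDK) inhibitors, D-type cyclins and the p53 and MYC genes that govern entry into the cell cycle were followed in mouse mesangial cells treated with TGF-β1. The 10 genes were Cdkn1a, Cdkn1b, Cdkn2a, Cdkn2b, Cdkn2c, Ccnd1, Ccnd2, Trp53, Mdm2 and Myc, taken as the rows whose symbol equals one of these names. All 10 were found, each in 1 row, among 19642 distinct gene symbols.

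RNA-Seq was performed on primary mesangial cells of the mouse, which are contractile cells that support the glomerular capillaries of the kidney, in 3 control libraries and 3 libraries of cells given TGF-β1 (transforming growth factor beta 1, a secreted profibrotic protein). Per the study's methods, all cells were of passage 3 to 6 and were grown with 25.5 mM glucose and 20% foetal bovine serum. The treated group received 10 ng/ml for 72 h. The comparison of these groups addresses how the transcriptome responds to the cytokine. The labels do not say whether the 3 libraries of a group came from separate cultures, so the p-values measure only the spread between these samples, which may be technical. Expression is given as FPKM, the fragments per kilobase of transcript per mapped fragments in M (mega), which corrects for length and allows levels of different genes to be compared.

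D-type cyclins bind CDK4 and CDK6, and the resulting kinases phosphorylate the retinoblastoma protein and release E2F factors, which opens the way into S phase. INK4 inhibitors (p16, p15, p18 and p19) bind CDK4 and CDK6 directly, whereas CIP/KIP inhibitors (p21, p27 and p57) act on cyclin-CDK complexes. The tumour suppressor p53 switches on the p21 gene and also that of its own ubiquitin ligase MDM2, MYC drives growth and biosynthesis, and TGF-β signalling through SMAD proteins is known for inducing p15 and p21 and repressing MYC in epithelial cells.

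The 250 bases before an annotated transcription start are shown for Cdkn1a, Cdkn2b and Cdkn2a, since induction of p21 and p15 by TGF-β or p53 is classically read at these promoters. The letters searched on both strands were CAGAC (the SMAD half-site), GGGCGG (the GC box), CACGTG (the E-box) and a pair of CATG separated by 6 bases, the core of a p53 element, and no 2 matches overlapped in the windows printed. Capitals mark these matches, and in the pair of CATG they also include the spacer. The sequences come from the RefSeq promoter table (GRCm38.p6), in which 7 of the 10 genes matched, with 10 windows. Ccnd1, Ccnd2 and Myc had no entry. Each window was also found base for base at 1 place on mm9, the build of the expression table, and coordinates below are those of mm9, 5′ to 3′ on the strand of the gene. Cdkn1a is shown at its distal start (chr17:29227674-29227923, plus strand), Cdkn2b at its only start (chr4:88956942-88957191, minus strand) and Cdkn2a at both first exons, that of Arf (chr4:88940524-88940773, minus strand) and that of p16 (chr4:88928097-88928346, minus strand).
Cdkn1a: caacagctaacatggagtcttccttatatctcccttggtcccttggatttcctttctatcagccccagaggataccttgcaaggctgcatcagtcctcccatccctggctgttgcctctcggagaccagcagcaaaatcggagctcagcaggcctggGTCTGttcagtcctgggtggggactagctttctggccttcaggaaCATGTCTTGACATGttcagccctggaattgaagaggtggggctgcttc
Cdkn2b: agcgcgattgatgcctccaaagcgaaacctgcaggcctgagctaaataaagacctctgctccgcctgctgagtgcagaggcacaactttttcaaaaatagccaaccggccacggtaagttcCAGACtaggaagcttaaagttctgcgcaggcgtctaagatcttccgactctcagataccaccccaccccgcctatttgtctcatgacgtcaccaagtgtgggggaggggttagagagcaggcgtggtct
Cdkn2a, Arf exon: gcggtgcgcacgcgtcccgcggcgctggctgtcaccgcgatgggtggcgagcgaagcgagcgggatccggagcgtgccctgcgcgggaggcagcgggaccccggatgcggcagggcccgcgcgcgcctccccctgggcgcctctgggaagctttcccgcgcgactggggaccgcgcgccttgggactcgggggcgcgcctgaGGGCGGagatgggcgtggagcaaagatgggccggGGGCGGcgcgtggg
Cdkn2a, p16 exon: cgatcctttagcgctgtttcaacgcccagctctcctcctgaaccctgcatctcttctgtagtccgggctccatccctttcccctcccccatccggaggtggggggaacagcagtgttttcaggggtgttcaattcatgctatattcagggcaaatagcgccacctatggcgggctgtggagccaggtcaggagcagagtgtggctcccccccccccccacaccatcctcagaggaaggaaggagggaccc
The distal Cdkn1a window held the pair of CATG, beginning 48 bases before the start (position -48), a spacing present in 0.49% of 32851 windows of this length. It also held CAGAC on the opposite strand, at -93. The window of the proximal Cdkn1a start (chr17:29230464-29230713, plus strand) is not printed. That window held CAGAC on the opposite strand at -135 and the GC box at -104 and -46, without the pair of CATG. The Cdkn2b window held CAGAC at -129, and 42.2% of all windows held that motif. The Arf window was 78.4% G and C and held the GC box at -48 and -14, which 32.7% of all windows held, while none of the 4 motifs was in the p16 window, at 60.0% G and C. The E-box, in 6.02% of all windows, was in none of the windows of the 7 genes. These matches describe letters only and do not show that a factor was bound.

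Across the table, 5721 of 11898 tested rows (48.1%) changed with TGF-β1 (limma, adjusted p under 0.05), with 24.5% upregulated and 23.6% downregulated, and 13.9% changed with a log2 change of at least 1 in either direction. The 3 values of one group lay wholly apart from those of the other in 59.4% of rows. Depth was about 10.1 to 11.1 M fragments per library, assuming fragments of 200 nt, and the smallest member value, Cdkn2c in TGF-β1 replicate 3, rested on about 52.8 fragments. The replicate 2 libraries of both groups stood apart: 46 of 10791 protein-coding rows (transcripts no shorter than 300 nt) were at least 2-fold lower in both than in each other library, against at most 4 for any other such pairing of 1 control with 1 treated library. Where calls of the 10 genes depended on these libraries, values without them are given. For the pathway genes further below, the lost call or the highest adjusted p over the settings may be given instead. Fewer cells of a type and less RNA per cell cannot be told apart in these bulk samples.

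The labelled cell type was checked against markers. Of 10 mesangial markers 9 had a row and 4 were tested, of which 2 were upregulated and 1 downregulated. The contractile genes Acta2 and Myl9 gave most of their summed FPKM, which was 1234 to 1377 in control and 4426 to 5161 with TGF-β1. Pdgfrb, a receptor gene among these markers, stood at 32.0 to 41.1 FPKM in control and 28.4 to 29.9 with TGF-β1. Itga8, Des, Thy1 and Pdgfra did not exceed 0.551 FPKM in any library. Cspg4, also under the filter on low values, rose from 0.0735 ± 0.0367 to 1.21 ± 0.257 FPKM (limma adjusted p 0.00095 without the filter). Tubular markers summed to 157 to 194 FPKM in control and 8.11 to 9.88 with TGF-β1. Of 10 such markers 7 had a row and 3 were tested and downregulated, Cdh16, Cldn2 and Aqp1, while Cdh1 and Krt8 stayed at or below 0.173 FPKM. Krt18, under the filter on low values, rose from 0.279 ± 0.12 to 1.57 ± 0.219 FPKM (limma adjusted p 0.0014 without the filter). Macrophage markers summed to 87.0 to 114 FPKM and 9.03 to 11.3 FPKM. Of 8 symbols 6 had a row and 3 were tested, and 2 fell, Cd14 and Csf1r, while Ptprc, Lyz2 and Itgam did not exceed 0.359 FPKM. Podocyte markers summed to 27.8 to 32.2 and 14.9 to 15.5 FPKM, with 5 of 6 having a row and 4 of 4 tested downregulated, and with Nphs1 at or below 0.398 FPKM. Endothelial markers summed to 3.07 to 4.52 and 2.83 to 3.44 FPKM, with 6 of 7 having a row, 1 tested and not called, and with Cdh5 and Kdr at or below 0.0244 FPKM. The part of these shifts in the results below was not tested.

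Of the 10 genes, all passed the filter on low values and 8 changed, 6 upregulated (Cdkn1a, Cdkn2b, Ccnd1, Ccnd2, Mdm2 and Myc) and 2 downregulated (Cdkn1b and Cdkn2c). The groups did not overlap in these 8, and 5 of the 10 were called with a log2 change of at least 1. Of all tested rows, 48.1% changed, 59.4% did not overlap and 13.9% were called with a change of that size. The median log2 change was 1.04 over the 10 genes and -0.02 over all tested rows. Trp53 and Cdkn2a were not called. The upregulated genes thus included CDK inhibitors, D cyclins and Myc alike.

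**Figure D1:**
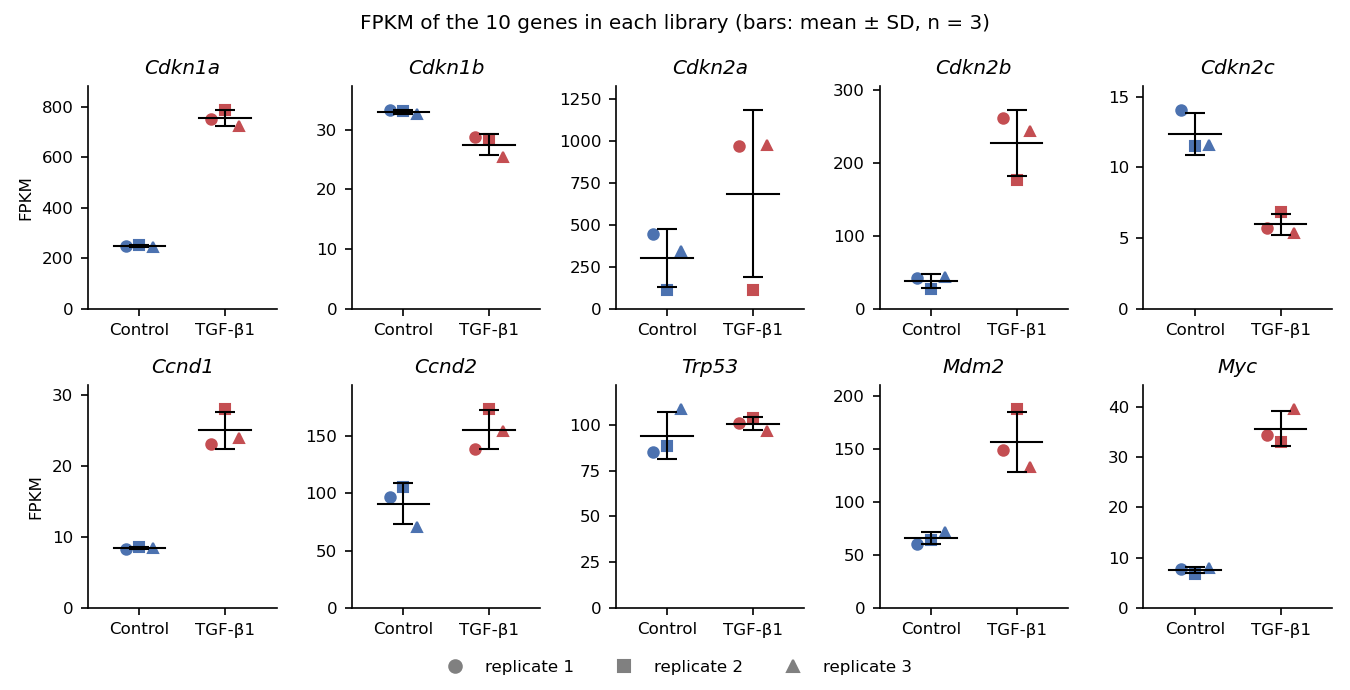
FPKM of the 10 genes in each of the 6 libraries, with control in blue, TGF-β1 in red, a symbol for each replicate number and bars for the mean ± SD (n = 3). Cdkn1a lies at 246 to 251 FPKM in control and 723 to 788 with TGF-β1, and the squares of Cdkn2a, replicate 2, lie near 110 FPKM in both groups.

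Among CIP/KIP inhibitors, Cdkn1a was the most abundant and rose, and Cdkn1b fell slightly. Cdkn1a (mm9 chromosome 17, 29227924 to 29237667, plus strand) encodes p21, which holds cyclin-CDK complexes inactive and binds PCNA. It was at 249, 251 and 246 FPKM in control replicates 1 to 3 and at 753, 788 and 723 FPKM in the TGF-β1 replicates. The lowest treated library was far above the highest control library. The mean rose from 249 ± 2.54 to 755 ± 32.3 FPKM (SD, n = 3), 3.03-fold, a log2 change of 1.60 with an SE of 0.0776 (limma adjusted p 3.5e-05).

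Cdkn1b (chromosome 6, 134870419 to 134875531, plus strand) encodes p27, the inhibitor that accumulates in quiescent cells. Its values were 33.3, 33.1 and 32.7 FPKM in control and 28.7, 28.4 and 25.5 FPKM with TGF-β1. All treated libraries lay below all control libraries, by a small margin. The mean fell from 33.0 ± 0.309 to 27.5 ± 1.79 FPKM, a log2 change of -0.26 with an SE of 0.0765 (limma adjusted p 0.0331). Leaving out single libraries removed this call in 5 of 6 fits, the exception being the fit without TGF-β1 replicate 2. The limma adjusted p was 0.0813, 0.0844 and 0.0539 without control replicates 1, 2 and 3, and 0.0684 and 0.110 without TGF-β1 replicates 1 and 3. In replicates 1 and 3 alone it was 0.103.

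Cdkn1c, the remaining member of the family, encodes p57. It fell from 13.0 ± 0.468 to 1.33 ± 0.155 FPKM, a log2 change of -2.59 (limma adjusted p 1.3e-05). The summed FPKM of the 3 genes rose from 295 ± 2.99 to 784 ± 33.7, and the share of Cdkn1a in that sum went from 84.4% ± 0.0699 to 96.3% ± 0.158. The 3 genes of one family thus moved in different directions, and p21 transcripts made up most of the family in both groups.

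The INK4 genes Cdkn2a and Cdkn2b lie next to each other on the minus strand of chromosome 4, with 11640 bases between them. Cdkn2b (88952198 to 88956941) encodes p15, an inhibitor known as a target of TGF-β in epithelial cells. It was at 42.8, 26.5 and 43.1 FPKM in control and at 262, 177 and 244 FPKM with TGF-β1. Every treated library was above every control library, and replicate 2 was the lowest of each group. The mean rose from 37.5 ± 9.50 to 228 ± 45.1 FPKM, 6.08-fold, a log2 change of 2.59 with an SE of 0.236 (limma adjusted p 0.00032). This was the largest rise among the 10 genes.

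Cdkn2a (88920377 to 88940557) encodes p16 and, through a separate first exon and reading frame, ARF, which binds MDM2. The row is named for a transcript that begins at the Arf exon (88940523), the p16 transcript begins at 88928096, and the table does not separate them. The values were 448, 112 and 346 FPKM in control and 971, 110 and 979 FPKM with TGF-β1. Replicate 2 was low in both groups, which overlapped with it and did not without it. The mean went from 302 ± 172 to 687 ± 500 FPKM, a log2 change of 0.86 with an SE of 0.968 (95% CI -1.48 to 3.20, limma adjusted p 0.494). In replicates 1 and 3 alone the log2 change was 1.31 (limma adjusted p 0.0064), and without TGF-β1 replicate 2 alone it was 1.91 (limma adjusted p 0.0495). With a term for the replicate 2 libraries it was not called (limma adjusted p 0.0562). The ratio of treated to control was 2.17 in replicate 1, 0.98 in replicate 2 and 2.83 in replicate 3.

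Cdkn2a was the only 1 of the 10 genes among the 46 rows that were at least 2-fold lower in both replicate 2 libraries. Replicates 1 and 3 exceeded replicate 2 by 3.54-fold in control and 8.87-fold with TGF-β1 for Cdkn2a, and by 1.62-fold and 1.43-fold for Cdkn2b. The 46 rows had a median GC content of 61.6%, against 50.4% of all 10791 rows, and Cdkn2a and Cdkn2b had 57.7% and 55.8%. Across rows, the deviation of TGF-β1 replicate 2 from its group mean fell with GC content (Spearman's rho -0.39, over rows of the same 6 libraries), while rho was 0.01 in control replicate 2. Cdkn1a, with 58.3%, did not share the pattern. After correction for GC content and length, the log2 change of Cdkn2a was 1.01 with an SE of 0.84 (limma adjusted p 0.349). The cause of the low replicate 2 values was not tested.

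**Figure D2:**
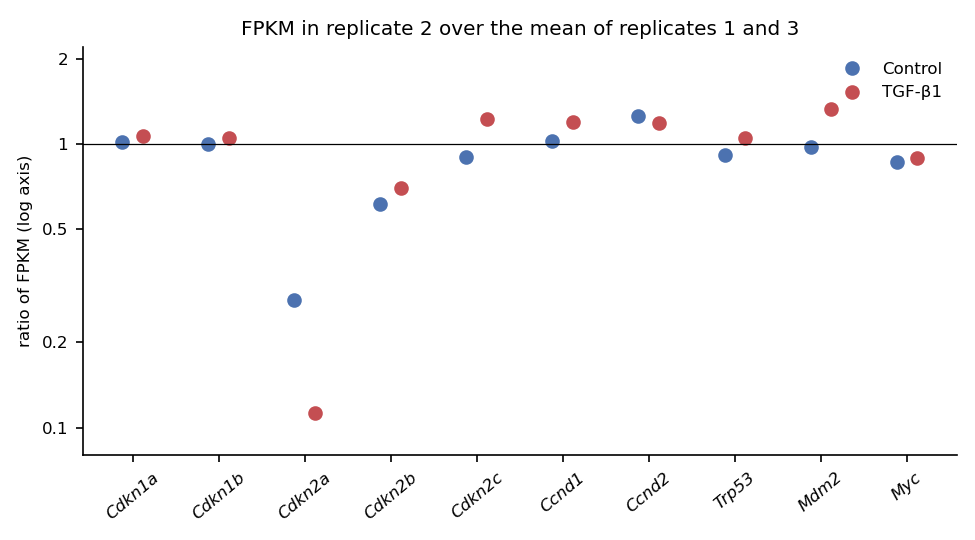
FPKM in replicate 2 divided by the mean of replicates 1 and 3 of the same group, on a log axis, for each of the 10 genes in control (blue) and TGF-β1 (red). Cdkn2a lies lowest in both groups, Cdkn2b is next, and the line marks a ratio of 1.

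Near the locus, the non-coding genes Gm12609 and Gm12610 begin 91707 and 131598 bases beyond Cdkn2b. Gm12609 was at no more than 0.677 FPKM in control and was listed at 0 in every treated library, and Gm12610 did not exceed 1.16 FPKM in any library. The pseudogene Gm12608, further along, did not exceed 0.13 FPKM. On the side of Cdkn2a, the non-coding gene Gm12606 (88881603 to 88919307), the pseudogene Gm12605 and the snoRNA gene SNORA17 had no row, so no values can be given. No other annotated gene overlapped Cdkn2a or Cdkn2b.

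Cdkn2c (chromosome 4, 109333481 to 109339794, minus strand) encodes p18. Its values were 14.1, 11.5 and 11.6 FPKM in control and 5.74, 6.82 and 5.38 FPKM with TGF-β1, so that every treated library lay below every control library. The mean fell from 12.4 ± 1.47 to 5.98 ± 0.752 FPKM, 2.07-fold lower, a log2 change of -0.94 with an SE of 0.122 (limma adjusted p 0.0014). Cdkn2d, the gene of p19, stood at 1.16 ± 0.315 and 1.27 ± 0.622 FPKM with a log2 change of 0.05 (95% CI -0.51 to 0.60), and was not called (limma adjusted p 0.881). Cdkn2b and Cdkn2c thus changed in opposite directions. In replicates 1 and 3 the share of Cdkn2a in the summed INK4 FPKM was 88.6% and 86.1% for control, and it was 78.2% and 79.6% after TGF-β1. In replicate 2 it was 73.9% and 37.3%. The Cdkn2a row does not separate Arf from p16, and only p16 is an INK4 inhibitor, so these are not shares of p16.

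Both D cyclins rose. Ccnd1 (chromosome 7, 152115836 to 152125774, minus strand), the mitogen-responsive partner of CDK4, was at 8.36, 8.62 and 8.41 FPKM in control and at 23.1, 28.1 and 24.0 FPKM with TGF-β1. The groups were well separated. The mean rose from 8.46 ± 0.139 to 25.0 ± 2.64 FPKM, 2.96-fold, a log2 change of 1.46 with an SE of 0.0937 (limma adjusted p 9.2e-05).

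Ccnd2 (chromosome 6, 127075797 to 127101066, minus strand) encodes another regulatory subunit of CDK4 and CDK6. It was at 96.4, 105 and 71.0 FPKM in control and at 139, 173 and 154 FPKM with TGF-β1. Control replicate 3 was the lowest library, and the groups did not overlap. The mean rose from 90.9 ± 17.9 to 156 ± 17.2 FPKM, 1.71-fold, a log2 change of 0.78 with an SE of 0.167 (limma adjusted p 0.0098). Ccnd1 overlaps Oraov1, and Ccnd2 overlaps the non-coding gene 9330179D12Rik, each on the opposite strand. Whether strand was used in the estimate is not given in the sources used here, so reads of the overlapping stretches cannot be assigned and both values are uncertain to that extent.

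Ccnd3, the remaining D cyclin, moved the other way, from 76.2 ± 4.10 to 52.9 ± 11.8 FPKM, a log2 change of -0.54 (limma adjusted p 0.0416). That call was lost without any 1 of the control replicates (highest limma adjusted p 0.106). The summed FPKM of the D cyclins was 176 ± 15.3 in control and 234 ± 9.99 with TGF-β1. Of this sum, Ccnd2 held 51.5% ± 6.03 and 66.5% ± 4.92, Ccnd3 43.7% ± 5.66 and 22.8% ± 5.68, and Ccnd1 4.85% ± 0.419 and 10.7% ± 0.829. The shares of all 3 cyclins lay apart between groups in every library.

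**Figure D3:**
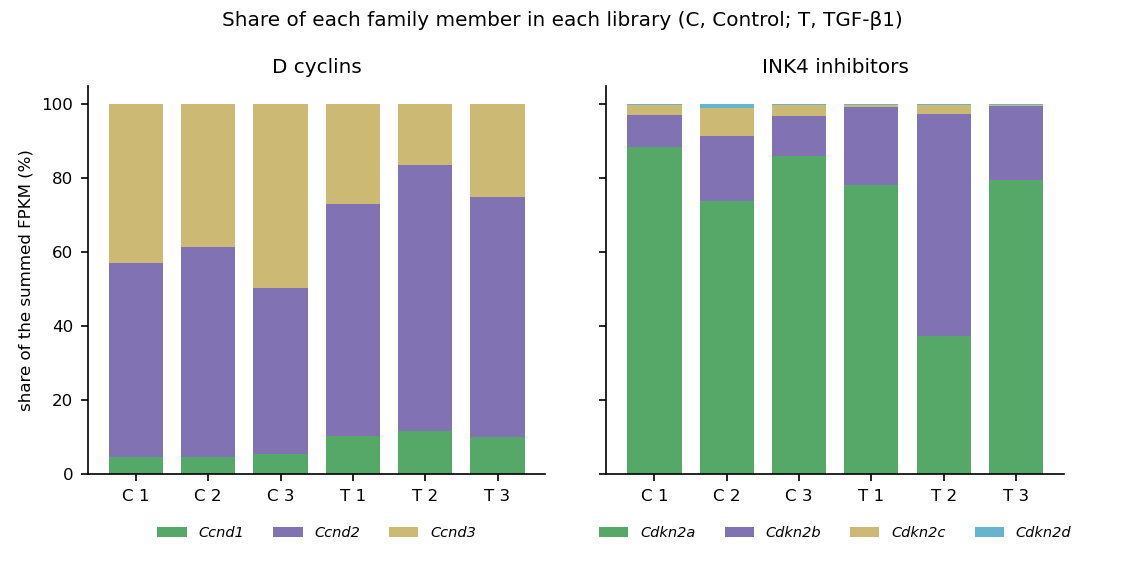
Share of each D cyclin (left) and each INK4 gene (right) in the summed FPKM of its family, as stacked bars in percent. Bars are for control (C) and TGF-β1 (T) libraries 1 to 3, and the Cdkn2a row does not separate Arf from p16. Ccnd3 holds less of the D cyclin sum in each treated library than in each control library, and TGF-β1 replicate 2 stands apart in the INK4 panel, with 37.3% for Cdkn2a.

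In the p53 axis, Mdm2 rose and Trp53 was not called. Trp53 (chromosome 11, 69393861 to 69405375, plus strand) encodes p53, whose activity is set largely after translation. It was at 85.1, 88.6 and 109 FPKM in control and at 101, 104 and 96.9 FPKM with TGF-β1. The highest library was a control and the groups overlapped. The means were 94.1 ± 12.7 and 101 ± 3.53 FPKM, with a log2 change of 0.10 with an SE of 0.109 (95% CI -0.16 to 0.37, limma adjusted p 0.466). When libraries were scaled to the sum of protein-coding rows the sign turned, to -0.09.

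Mdm2 (chromosome 10, 117125944 to 117147814, minus strand) encodes the ligase that marks p53 for degradation and is itself a p53 target. It was at 60.6, 64.4 and 71.5 FPKM in control and at 148, 187 and 133 FPKM with TGF-β1. All treated libraries were above all controls, with replicate 2 the highest. The mean rose from 65.5 ± 5.53 to 156 ± 28.1 FPKM, 2.38-fold, a log2 change of 1.23 with an SE of 0.143 (limma adjusted p 0.00087). The ratio of Mdm2 to Trp53 FPKM was 0.699 ± 0.0361 in control and 1.55 ± 0.227 with TGF-β1.

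Myc (chromosome 15, 61816946 to 61821929, plus strand) encodes the MYC transcription factor, which pairs with MAX to activate genes of growth and metabolism. It was at 7.75, 6.77 and 7.94 FPKM in control and at 34.4, 32.9 and 39.5 FPKM with TGF-β1. The treated libraries lay together, well above the control libraries. The mean rose from 7.49 ± 0.628 to 35.6 ± 3.47 FPKM, 4.76-fold, a log2 change of 2.11 with an SE of 0.103 (limma adjusted p 3.5e-05). After Cdkn2b this was the largest rise of the 10 genes.

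**Figure D4:**
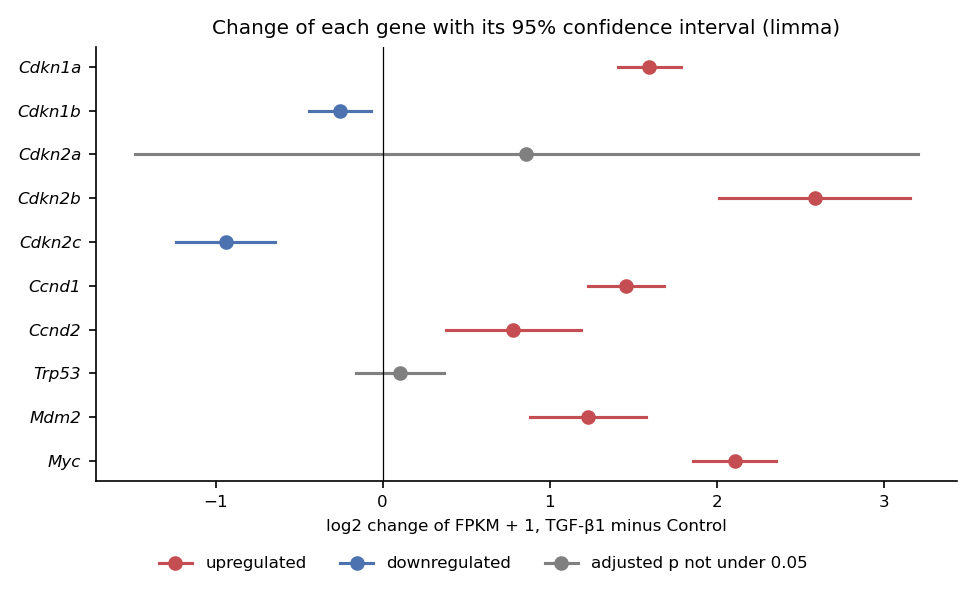
Log2 change of FPKM + 1 (TGF-β1 minus control) of each gene with its 95% confidence interval from limma. Cdkn2b (2.59) and Myc (2.11) lie farthest to the right, Cdkn2c (-0.94) farthest to the left, and the interval of Cdkn2a spans -1.48 to 3.20.

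The order of levels differed between groups. In control, mean FPKM ran from Cdkn2a (302) and Cdkn1a (249) through Trp53 (94.1), Ccnd2 (90.9), Mdm2 (65.5), Cdkn2b (37.5), Cdkn1b (33.0), Cdkn2c (12.4) and Ccnd1 (8.46) to Myc (7.49). The ranges of neighbouring genes overlapped for Cdkn2a and Cdkn1a, for Trp53 and Ccnd2, for Ccnd2 and Mdm2, and for Cdkn2b and Cdkn1b. With TGF-β1 the order was Cdkn1a (755), Cdkn2a (687), Cdkn2b (228), Mdm2 (156), Ccnd2 (156), Trp53 (101), Myc (35.6), Cdkn1b (27.5), Ccnd1 (25.0) and Cdkn2c (5.98). There the ranges overlapped between neighbours from Cdkn1a down to Ccnd2, and between Cdkn1b and Ccnd1. In replicates 1 and 3 Cdkn2a stood above Cdkn1a in both groups. The values were 448 and 346 against 249 and 246 FPKM in control, and 971 and 979 against 753 and 723 FPKM with TGF-β1. In replicate 2 Cdkn2a lay below, at 112 against 251 FPKM in control and 110 against 788 FPKM with TGF-β1. The overlaps of Cdkn2a with neighbouring genes rested on these replicate 2 libraries. Among all tested rows, the mean of Myc went from the 36.1 to the 76.9 percentile and that of Cdkn2b from the 78.8 to the 95.8 percentile. Trp53 stayed near the 91.2 percentile, at 90.8 with TGF-β1.

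The genes whose profile over the 6 libraries was most like that of each changed member were found among 10791 protein-coding rows, by the root mean square difference of log2(FPKM + 1) after centring each row, in log2 units. The closest profile of all was that of Iars to Ccnd1 (0.02), from 16.7 to 47.9 FPKM, followed for Ccnd1 by Tagln2 and Ugcg. Sertad4 (0.05), Sec24d and Lrrc59 were nearest to Cdkn1a, and Rabgap1l (0.03), Acat1 and Larp7 to Cdkn1b. Fndc3a (0.06), Cspp1 and Prim1 were nearest to Cdkn2c, while Abhd5 (0.06), 9930111J21Rik2 and Zfp125 were nearest to Ccnd2. Cebpg (0.06), Filip1l and Gprc5a were nearest to Mdm2, and Sc5d (0.07), Coq10b and Creb3l1 to Myc. Cdkn2b had the least close neighbours, Loxl2 (0.19), Tnfaip3 and Whrn. These are likenesses over 6 libraries in 2 groups, so any gene of similar change and small spread is near.

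The wider pathway was taken from 10 lists with 189 distinct genes other than the members. These lists were chosen with earlier results of these data known, so their counts beside those of all rows are descriptive only. Of 169 tested, 61 were upregulated and 32 downregulated, where 24.5% and 23.6% of all tested rows were. Among 26 tested p53 target genes, 17 rose and 4 fell, against 24.5% and 23.6% of all tested rows, with a median log2 change of 0.49. Pmaip1, which encodes the pro-apoptotic protein NOXA, rose from 19.6 ± 2.45 to 339 ± 8.71 FPKM, a log2 change of 4.05 (limma adjusted p 4.7e-06). Gadd45a, a stress-induced growth arrest gene, rose from 21.7 ± 4.71 to 233 ± 11.0 FPKM, a log2 change of 3.39 (limma adjusted p 3.3e-05). Cd82, a tetraspanin gene, fell from 57.5 ± 6.09 to 15.9 ± 2.59 FPKM, and Sesn1, which encodes a stress-induced inhibitor of TORC1, fell from 27.4 ± 3.07 to 9.12 ± 0.579 FPKM. After scaling to the sum of protein-coding rows 12 of these targets rose and 5 fell, and in replicates 1 and 3 alone 14 rose and 3 fell.

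Of 14 tested regulators of p53, 2 rose and 3 fell, where 24.5% and 23.6% of all tested rows did. Their median log2 change was 0.04. Trp53inp2, which encodes an autophagy cofactor, rose with a log2 change of 1.27 (limma adjusted p 7.7e-05), and Mdm4, which encodes an MDM2 relative that restrains p53, with 0.61 (limma adjusted p 0.0189). The kinase gene Hipk2 fell by 0.44 and the phosphatase gene Ppm1d fell by 0.38 on the log2 scale. The calls of Mdm4, Hipk2 and Ppm1d were lost when some single libraries were left out, with limma adjusted p up to 0.0731, 0.12 and 0.135 over the settings tried. After scaling to protein-coding rows 1 of the 14 rose and 3 fell, and in replicates 1 and 3 alone 1 was called. The number called was 3 and 2 without control replicates 2 and 3, and 2 and 1 without TGF-β1 replicates 1 and 3.

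Of 30 MYC target genes, 20 rose and 1 fell, where 24.5% and 23.6% of all tested rows did. Their median log2 change was 0.43. Ldha (lactate dehydrogenase) rose from 181 ± 14.5 to 473 ± 25.8 FPKM, a log2 change of 1.38 (limma adjusted p 0.00011). Srm (spermidine synthase) rose from 20.7 ± 3.95 to 51.5 ± 5.66 FPKM, a log2 change of 1.28 (limma adjusted p 0.00088). Odc1 (ornithine decarboxylase), an established MYC target, fell from 59.2 ± 11.1 to 43.7 ± 1.40 FPKM (limma adjusted p 0.0444), a call lost without control replicate 1 or any TGF-β1 replicate (up to 0.118 over the settings). Scaling libraries to the sum of protein-coding rows shifted the median of all rows to -0.19, left 33.8% of all calls upregulated against 50.9%, and left 12 MYC targets rising and 1 falling. Relative to the median of all rows, the median of the MYC targets was 0.45 without this scaling and 0.43 with it. The number of MYC targets changed, 21 with all libraries, was 12 without TGF-β1 replicate 1 and 13 without TGF-β1 replicate 3, and in replicates 1 and 3 alone 15 rose.

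Of 10 tested partners and antagonists of MYC, 2 rose and 6 fell, where 24.5% and 23.6% of all tested rows did. Their median log2 change was -0.39. Max, the obligate partner of MYC, rose with a log2 change of 0.48 (limma adjusted p 0.0112), and Mlx, a MAX-like partner, with 0.50 (limma adjusted p 0.0036). The largest falls were in Mycn, a paralogue of Myc, from 2.26 ± 0.923 to 0.591 ± 0.255 FPKM, and in Mxd4, which encodes a MAX-binding repressor, from 70.9 ± 11.7 to 44.9 ± 1.15 FPKM. Max was not called after scaling to protein-coding rows or in replicates 1 and 3 alone. Of the 10, 1 rose and 6 fell with that scaling, and 1 rose and 3 fell in those 4 libraries.

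The genes of the G1 machinery on which the inhibitors and cyclins act went both ways. Of 17 tested G1 cyclin, CDK and RB-E2F genes, 3 rose and 2 fell, where 24.5% and 23.6% of all tested rows did, and their median log2 change was -0.02. Cdk4 stood at 980 ± 10.3 and 993 ± 47.6 FPKM, a log2 change of 0.02 (95% CI -0.19 to 0.23), and Cdk6 at 3.90 ± 0.607 and 4.03 ± 0.511 FPKM, a log2 change of 0.04 (95% CI -0.29 to 0.37). Neither was called. E2f3, which encodes an activating E2F factor, rose with a log2 change of 0.72 (limma adjusted p 0.0022). Rb1, the retinoblastoma gene, rose from 8.96 ± 1.68 to 14.3 ± 2.78 FPKM, by 0.61 on the log2 scale (limma adjusted p 0.0342), a call lost in every fit that left out 1 library except that without TGF-β1 replicate 3 (up to 0.0969 over the settings). A separate row of Rb1 was not called (log2 change 0.42, limma adjusted p 0.271). E2f5, which encodes a repressive E2F factor, fell by 0.47 on the log2 scale (limma adjusted p 0.0107, and 0.0556 in replicates 1 and 3 alone), and Ccnd3 fell as given above. Over the 18 rows of these genes, both Rb1 rows included, 1 rose and 2 fell after scaling to protein-coding rows, and in replicates 1 and 3 alone 2 rose and 1 fell. Without control replicate 1 or without control replicate 2, 3 of the 18 changed.

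Of 21 tested S phase and mitosis genes, 2 rose and 4 fell, where 24.5% and 23.6% of all tested rows did. Their median log2 change was -0.02. Tyms (thymidylate synthase) rose by 0.81 and Mcm2, which encodes a subunit of the replicative helicase, by 0.44 on the log2 scale (limma adjusted p 0.0089 and 0.0051). Mcm5, of the same helicase, fell by 0.70, and Birc5 (survivin) fell by 0.68 (limma adjusted p 0.0059 and 0.0285). The helicase genes Mcm2 and Mcm5 thus went opposite ways. Mcm3, Mcm4, Mcm6 and Mcm7, of the same complex, were not called, with log2 changes of -0.04, 0.16, -0.02 and 0.09. Without TGF-β1 replicate 1 the number of changed genes of this list was 3, and in replicates 1 and 3 alone 2 rose and 2 fell. Birc5 was not called without control replicate 1 or 3 or TGF-β1 replicate 1, with limma adjusted p up to 0.0828 over the settings.

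Of 5 further genes named for CDK inhibitors, Cdkn1c fell, as above, and Cdkn2aip, which encodes an ARF-binding protein, rose with a log2 change of 0.37 (limma adjusted p 0.0212), a call lost in 9 of 20 settings with values up to 0.15, among them those without control replicate 1 or 2 or TGF-β1 replicate 1 or 3. Their median log2 change was -0.11. Of 17 genes for the turnover of these proteins, 6 rose and 2 fell, where 24.5% and 23.6% of all tested rows did. The median of these 17 was 0.24. Cks1b, a cofactor of the ligase that degrades p27, rose by 1.19, and Fbxw7, which recognises MYC and cyclin E, by 0.95 on the log2 scale (limma adjusted p 0.007 and 0.00066). The deubiquitinase gene Usp28 fell by 0.54, and Ambra1, a receptor of D cyclins for degradation, fell by 0.48 (limma adjusted p 0.0069, and 0.0516 in replicates 1 and 3 alone). After scaling to protein-coding rows 3 of the 17 rose and 4 fell, and in replicates 1 and 3 alone 4 rose and 1 fell.

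Of 18 tested regulators of the Cdkn2a-Cdkn2b locus, mostly Polycomb genes, 5 rose and 6 fell, where 24.5% and 23.6% of all tested rows did. Their median log2 change was -0.28. Ets1, an activator of p16, rose from 4.72 ± 0.746 to 14.3 ± 0.542 FPKM, a log2 change of 1.43 (limma adjusted p 0.00019). Eed, which encodes a core subunit of Polycomb repressive complex 2, rose with a log2 change of 0.57 (limma adjusted p 0.0125, and 0.0896 in replicates 1 and 3 alone). Cbx7, a Polycomb repressor of the locus, fell from 2.81 ± 0.209 to 0.572 ± 0.152 FPKM, a log2 change of -1.28 (limma adjusted p 0.00046). Ezh1, a histone methyltransferase gene, fell from 13.6 ± 0.982 to 5.31 ± 0.797 FPKM, a log2 change of -1.21 (limma adjusted p 0.00045). After scaling to protein-coding rows 2 rose and 7 fell, and in replicates 1 and 3 alone 1 rose and 6 fell. Without TGF-β1 replicate 2, 7 of the 18 changed.

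Of 11 SMAD partners and FOXO factors known at CDK inhibitor promoters, 3 rose and 3 fell, where 24.5% and 23.6% of all tested rows did. Their median log2 change was -0.15. Foxo1, an activator of p27 and p21, rose by 0.53 and Smad2, a transducer of TGF-β, by 0.51 on the log2 scale (limma adjusted p 0.0088 and 0.0082). Smad2 was not called after scaling to protein-coding rows or in replicates 1 and 3 alone. Egr1, an immediate early gene, fell from 46.5 ± 9.13 to 17.8 ± 2.22 FPKM, a log2 change of -1.33 (limma adjusted p 0.001), and Klf4, an activator of p21, fell by 0.63 (limma adjusted p 0.0056). After scaling to protein-coding rows 1 rose and 4 fell, and in replicates 1 and 3 alone 1 rose and 3 fell.

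**Figure D5:**
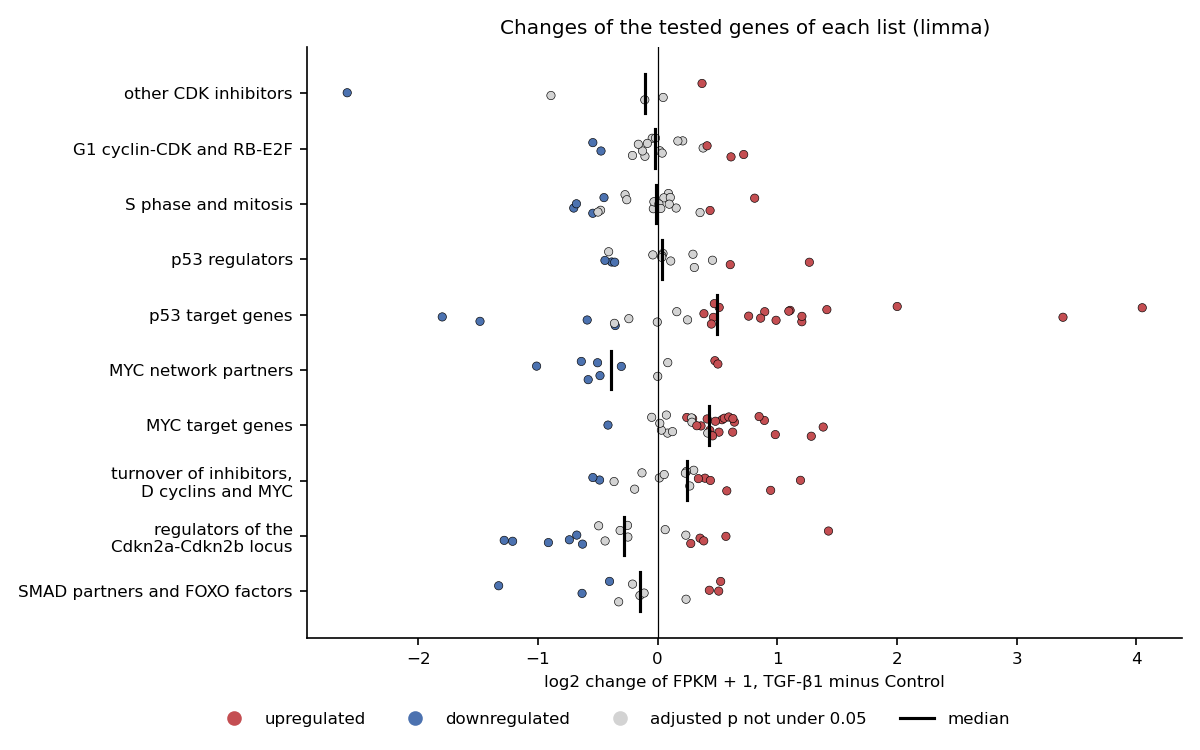
Log2 change of FPKM + 1 (TGF-β1 minus control) of every tested gene in the 10 lists, coloured by limma call, with a black bar at the median of each list. The p53 targets and the MYC targets lie mostly to the right of 0, with medians of 0.49 and 0.43, and the MYC network partners mostly to the left, with a median of -0.39.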

How the data were processed

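Per the study's methods, the authors filtered reads on quality, aligned them to mm9 with TopHat (TopHat2 2.0.11 in the submitters' processing notes) and estimated FPKM with Cufflinks. The deposited table holds FPKM in 1 column per library and 19730 rows, each with a transcript identifier. Whether a row is the value of its gene or of that transcript is not stated. The authors tested counts with DESeq. Counts were not used here, so limma 3.58.1 (R 4.3.3) was fitted to log2(FPKM + 1), with eBayes, a mean-variance trend, two-sided p-values and Benjamini-Hochberg adjustment over the 11898 rows whose mean FPKM reached 1. Changes on this scale understate those of low genes. In simulated data with known changes in 200 of 11898 rows, the test recovered 20% of log2 changes of 0.5 and 66% of 1. It recovered 86% of changes of 2 and 98% of 3, and 3.57% of its calls were false. Far fewer rows changed there than in the real data, so these shares need not hold for it. Coordinates, overlaps and GC content came from GENCODE M1 on mm9. Python 3.11.15 and pandas 2.3.3 were used.

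The members and lists were chosen with earlier results of these data known. Genes named are the members, the 2 largest called rises and falls of each list, the family genes Cdkn1c, Cdkn2d, Ccnd3, Cdk4, Cdk6 and Rb1, the 3 nearest profiles and the neighbours of the Cdkn2a locus. A marker fixed for the cell type check is not reported here. The alternatives were other pseudocounts, filters, scalings and thresholds, a replicate block, a term for replicate 2, replicates 1 and 3 alone, each library left out, and 2 that were chosen with the data in view (only protein-coding transcripts of 300 nt or longer, and correction for GC content and length).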

Additional observations from a re-analysis of the deposited data

How the results depend on the processing

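Across 20 settings, 18 planned and 2 chosen after the data were seen, the directions and calls of Cdkn1a, Cdkn2b, Cdkn2c, Ccnd1, Ccnd2, Mdm2 and Myc held, with a highest limma adjusted p of 0.0324 (Ccnd2). Trp53 was called in none, with values from -0.09 to 0.21 and limma adjusted p from 0.0629 to 0.841. The log2 change of Cdkn1b was not called with the replicate block (-0.26, limma adjusted p 0.063), in replicates 1 and 3 alone (-0.28) or at an adjusted p under 0.01 (-0.26), and it was -0.29 to -0.20 when 1 library was left out. Downregulated members then numbered 1 in each of these settings, and 1 to 2 when 1 library was left out. The change of Cdkn2a was called in replicates 1 and 3 alone (1.31) and without TGF-β1 replicate 2, and ran from 0.26 to 1.91 when 1 library was left out. Changed pathway genes numbered 93 in all libraries, 61 in replicates 1 and 3 alone, where fewer samples were tested, and 55 at an adjusted p under 0.01, where 3672 rows changed and 1727 fell, by construction of the stricter threshold. Of 37 list genes named and called, 23 were called in every setting in which they had a value (Cbx7 and Mcm5 had none at a mean FPKM of at least 3), 26 in replicates 1 and 3 alone, and the sign turned in none.

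Replicate numbers are shared by the groups, and same-numbered libraries deviated together with r of 0.09, 0.23 and 0.09 across rows. The labels do not say what a number shares, and the main fit did not take the numbers as pairs. With the replicate block 5391 rows changed, and among the members Cdkn1b alone lost its call. The SE of Cdkn2a went from 0.968 to 0.314 with the block, and Cdkn2a was still not called (limma adjusted p 0.0821). Control replicate 1 correlated more with TGF-β1 replicate 3 (0.12) than with its own number. All other pairings of unlike number had negative r, from -0.19 to -0.02. Low genes rest on few fragments.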
